A study of Rattus norvegicus with 18 samples.

Results

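Levels of 10 genes of the cytoskeleton and of calcium-dependent membrane binding were examined in rat liver: Tagln2, Tagln, Vim, Anxa1, Anxa2, Anxa5, Crip1, Tmsb10, Lgals1 and S100a6. Tagln2, Vim, Anxa2 and Crip1 had been picked because their levels were lower on the high fat diet than on chow, and the other 6 were added as relatives or partners of these genes. Where several probe sets named a gene, the one with the highest mean signal was taken. This gave 9 of the 10 genes among 14217 genes in all, because the only probe set that names Tmsb10 also names a pseudogene of it. The livers came from adult male Sprague Dawley rats, fasted overnight before they were killed, and expression was measured on 18 Affymetrix arrays. The groups were a high fat diet plus daily pomegranate skin extract, 150 mg per kg body weight (HFD+PE), the high fat diet alone (HFD), and chow, each fed for 8 weeks and each with 6 arrays. The labels call the HFD livers fatty, and the HFD+PE and chow livers normal. All values below are log2 signals, or differences between them, on the scale the authors deposited, rounded by them to 0.1.

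These genes encode proteins that shape and anchor the cell. Vimentin forms intermediate filaments in mesenchymal cells, such as the stellate cells, endothelial cells and immune cells of the liver, whereas hepatocytes build theirs from keratins. Transgelins and thymosins bind actin, annexins attach to membranes when calcium is bound, and S100 proteins are small calcium sensors that pair with annexins. Several of them are known as markers of activated stellate cells and of macrophages.

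Of 153 pairs of arrays, 3 (HFD+PE 3 with 4, HFD 1 with 2, chow 3 with 4) held 0 probe sets more than 2 log2 units apart, where the other 150 held 18 to 109. Each of these pairs was counted as 1 animal, which left n = 5 animals in each group. That grouping was inferred from the signals, as every array is labelled a biological replicate, and it was weakest for the HFD+PE pair, whose SD of differences (0.260) equalled the lowest of the other pairs. The signal of the bacterial and phage hybridization controls (bioC, bioD and cre) was 12.35 to 12.92 on 5 arrays (chow 1, 2 and 3, HFD+PE 1 and 3) and 11.40 to 11.84 on the other 13. Hepatocyte markers lay near the top of the scale in every group, with Alb at 14.96 ± 0.05 in HFD+PE, 14.95 ± 0.05 in HFD and 14.97 ± 0.04 in chow.

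Promoter windows of the 4 genes picked for their lower levels are shown because these genes were low in the same groups, and their shared and differing letters can be compared. Each window runs from 250 bases before to 50 bases after a RefSeq transcript start (build GRCr8), 5′ to 3′ on the gene's strand. Crip1 has a window at each of its listed starts. Capitals mark matches, on either strand, to the TATA box (TATAAA), the GC box (GGGCGG), the AP-1 site (TGANTCA), the TEAD site (GGAATG) or the CArG box, which serum response factor binds; no marked matches overlap each other.
Tagln2 (GRCr8 chr13:87499158-87499457, plus strand): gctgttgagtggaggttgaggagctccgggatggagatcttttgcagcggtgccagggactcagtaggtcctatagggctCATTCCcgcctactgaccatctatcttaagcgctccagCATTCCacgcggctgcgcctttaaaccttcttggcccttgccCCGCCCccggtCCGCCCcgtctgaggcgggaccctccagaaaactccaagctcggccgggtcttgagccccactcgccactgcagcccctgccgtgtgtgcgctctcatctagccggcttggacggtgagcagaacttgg
Vim (GRCr8 chr17:81577011-81577310, plus strand): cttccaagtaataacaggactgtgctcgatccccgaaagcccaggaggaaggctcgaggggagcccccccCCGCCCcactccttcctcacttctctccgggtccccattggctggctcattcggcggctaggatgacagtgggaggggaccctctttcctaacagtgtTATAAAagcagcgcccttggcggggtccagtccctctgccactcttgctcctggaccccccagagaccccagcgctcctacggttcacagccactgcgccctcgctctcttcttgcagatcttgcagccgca
Anxa2 (GRCr8 chr8:78986002-78986301, plus strand): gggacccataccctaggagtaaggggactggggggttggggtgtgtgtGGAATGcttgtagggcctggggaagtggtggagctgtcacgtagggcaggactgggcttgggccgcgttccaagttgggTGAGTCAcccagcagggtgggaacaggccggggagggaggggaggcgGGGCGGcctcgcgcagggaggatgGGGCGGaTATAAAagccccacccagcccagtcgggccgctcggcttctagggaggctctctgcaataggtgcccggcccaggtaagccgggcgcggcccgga
Crip1, first window (GRCr8 chr6:138047551-138047850, plus strand): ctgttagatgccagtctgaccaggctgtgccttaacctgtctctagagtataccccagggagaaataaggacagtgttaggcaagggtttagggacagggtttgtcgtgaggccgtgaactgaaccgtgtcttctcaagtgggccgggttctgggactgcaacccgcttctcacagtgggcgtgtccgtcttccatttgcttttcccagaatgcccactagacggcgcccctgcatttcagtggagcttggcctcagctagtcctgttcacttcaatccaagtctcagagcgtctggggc
Crip1, second window (GRCr8 chr6:138053618-138053917, plus strand): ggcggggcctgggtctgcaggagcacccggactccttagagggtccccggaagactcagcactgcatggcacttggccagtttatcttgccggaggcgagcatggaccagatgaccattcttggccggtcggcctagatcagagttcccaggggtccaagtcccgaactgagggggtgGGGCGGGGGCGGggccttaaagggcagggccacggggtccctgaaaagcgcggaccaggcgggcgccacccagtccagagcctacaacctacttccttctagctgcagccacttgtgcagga

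The windows were GC-rich and held different motifs. Their GC content was 62.3% for Tagln2, 62.0% for Vim, 68.0% for Anxa2, and 55.0% and 64.7% for Crip1, against a median of 51.7% over all 33469 windows. Tagln2 held TEAD letters at positions -170 and -132, counted back from the start, and GC boxes at -90 and -79. Vim held a TATA box at -82 and a GC box at -180. Anxa2 held a TATA box at -45, GC boxes at -76 and -52, an AP-1 site at -123 and a TEAD site at -202. The second Crip1 window held GC boxes at -72 and -66, and the first held none of these motifs. RefSeq windows were matched for 8 of the 10 genes, Tagln and Lgals1 having none in the table, and made 9 windows in all. Of these 9, 7 held a GC box (33.1% of all windows), 3 a TATA box (14.2%), 3 a TEAD site (14.2%), 1 an AP-1 site (7.3%) and 0 a CArG box (1.6%). A match of letters is a description, and binding was not measured.

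Among the structural genes, Vim was lower in both high fat groups than on chow. It was at 8.0, 8.1, 8.4, 8.3 and 8.3 in the HFD+PE animals, at 8.25, 8.6, 8.0, 8.6 and 8.2 in the HFD animals, and at 8.6, 9.1, 9.05, 8.8 and 9.1 in the chow animals. All 5 HFD+PE animals lay below the lowest chow animal, while 2 HFD animals reached it. The actin-binding gene Tagln2, widely expressed outside muscle, was low in every high fat animal. Its level was 7.7, 7.9, 7.85, 7.7 and 7.9 in HFD+PE, 8.0, 7.8, 7.4, 7.9 and 7.7 in HFD, and 8.1, 8.3, 8.65, 8.5 and 8.5 in chow. No animal of either high fat group reached the lowest chow animal. Tagln, its smooth muscle relative, overlapped in all groups: it ranged from 5.35 to 6.0 in HFD+PE, from 5.4 to 6.1 in HFD and from 5.8 to 6.3 in chow.

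**Figure D1:**
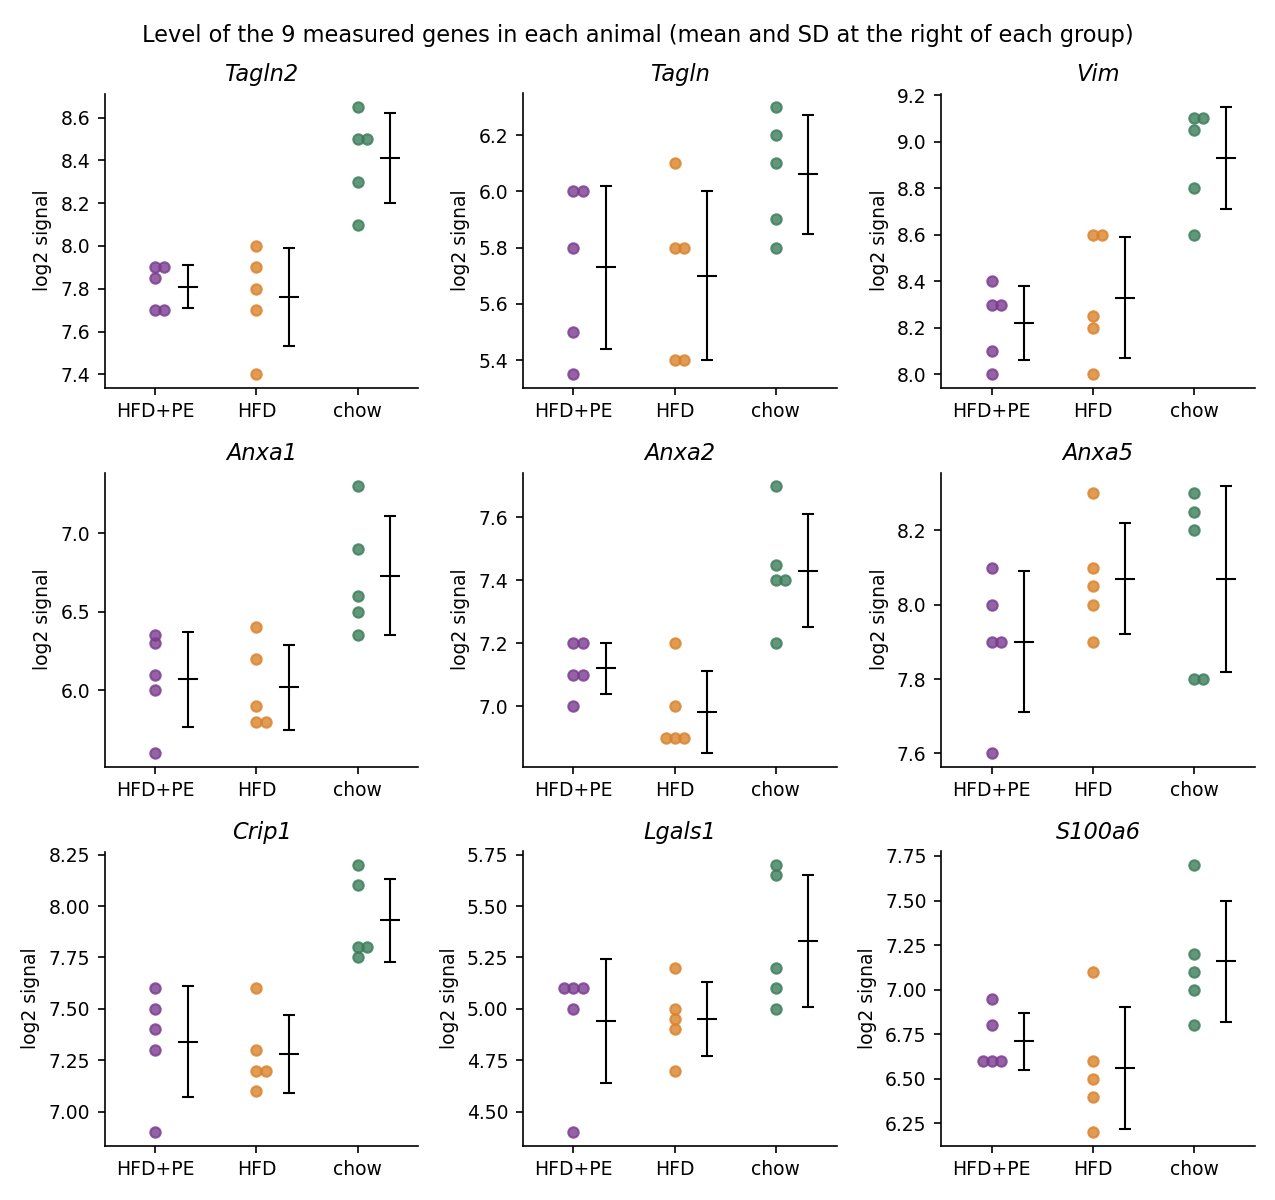
Log2 signal of each of the 9 genes (y axes) in the 5 animals of each group (x axes); each point is 1 animal, and the bar to the right of each group is its mean with the SD. Tagln2, Vim and Crip1 show HFD+PE animals wholly below the chow animals, whereas Anxa5 overlaps between all groups.

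The annexins did not behave alike. Anxa2, which forms a complex with S100a10 under the cell membrane, was at 7.0, 7.2, 7.1, 7.2 and 7.1 in HFD+PE, at 6.9, 6.9, 6.9, 7.2 and 7.0 in HFD, and at 7.2, 7.4, 7.45, 7.7 and 7.4 in chow. Its high fat groups reached the lowest chow animal but did not pass it. Anxa1, known as a glucocorticoid-induced regulator of inflammation, averaged 6.07 ± 0.30 in HFD+PE, 6.02 ± 0.27 in HFD and 6.73 ± 0.38 in chow (SD, n = 5). The highest chow animal, chow 5 at 7.3, stood well above the others of its group, which lay between 6.35 and 6.9. Anxa5, which binds phosphatidylserine on dying cells, had the same mean on HFD and chow: 7.90 ± 0.19 in HFD+PE, 8.07 ± 0.15 in HFD and 8.07 ± 0.25 in chow. A further probe set of Anxa2 was dim, at 4.0 to 4.3 in HFD+PE, 4.05 to 4.1 in HFD and 4.1 to 4.3 in chow, below the array medians of 5.4 to 5.5.

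Of the remaining genes, Crip1, a small protein with a zinc-binding LIM domain, was at 6.9, 7.4, 7.5, 7.3 and 7.6 in HFD+PE, at 7.6, 7.2, 7.1, 7.2 and 7.3 in HFD, and at 7.8, 8.2, 7.75, 8.1 and 7.8 in chow. Neither high fat group overlapped with chow. S100a6, a calcium sensor also called calcyclin, averaged 6.71 ± 0.16 in HFD+PE, 6.56 ± 0.34 in HFD and 7.16 ± 0.34 in chow. Its ranges overlapped, since HFD 5 was at 7.1 and the lowest chow animal at 6.8. Lgals1, which encodes the sugar-binding galectin 1, was at 4.4, 5.0, 5.1, 5.1 and 5.1 in HFD+PE, at 4.95, 5.0, 4.9, 5.2 and 4.7 in HFD, and at 5.0, 5.1, 5.65, 5.7 and 5.2 in chow, near or below the array medians. Only chow 3-4 and chow 5 stood clear of the high fat animals for Lgals1. The probe set annotated to both Tmsb10, an actin-sequestering thymosin, and its pseudogene, ranged from 5.5 to 6.0 in HFD+PE, from 5.3 to 6.2 in HFD and from 5.7 to 6.6 in chow; its signal cannot be assigned to either.

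The comparison of HFD+PE with chow asked how far livers on diet and extract together stood from chow livers. All 9 genes had a lower mean in HFD+PE, where 45.6% of all genes had one, with a median log2 change of -0.45, against 0.01 over all 14217 genes. In limma, 0 of the 9 passed an adjusted p of 0.05 over all genes, and neither did any other gene (0%). At an unadjusted p under 0.05, 8 of the 9 were lower, where 5.14% of all genes were. The groups did not overlap for 3 of the 9, namely Tagln2, Vim and Crip1, against 0.732% of all genes that were lower without overlap, and 0 of the 9 were higher without overlap (0.682% of all genes). The chow animals are also those against which Tagln2, Vim, Anxa2 and Crip1 had been picked as lower on HFD, so their counts here are not independent of that choice.

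Vim had a log2 change of -0.71 (SE 0.13), or 0.611 of its chow level, and ranked 4 of 14217 by p (adjusted p = 0.104 in limma; 5 of 5 HFD+PE animals below the chow mean). With the animal HFD+PE 3-4 left out its change was -0.76 and it passed (adjusted p = 0.0361). With any other 1 animal of the HFD+PE and chow groups left out Vim did not pass (adjusted p from 0.0741 to 0.233 in limma). It also did not pass on arrays with only low (adjusted p = 0.211 in limma) or only high hybridization control signal (0.915). An unmoderated linear model gave it an adjusted p of 0.214. Tagln2 was lower by an amount similar to that of Vim, at -0.60 (SE 0.12), and ranked 7 (adjusted p = 0.104). Crip1 was at -0.59 (SE 0.13; adjusted p = 0.108) and Anxa2 at -0.31 (SE 0.09; adjusted p = 0.211). With all 18 arrays counted as separate animals, Vim and Tagln2 (adjusted p = 0.0148 for each) and Crip1 (adjusted p = 0.0455) passed in limma, while Anxa2 did not (adjusted p = 0.0571). If the inferred pairs of arrays are each 1 animal, this setting counts repeats as animals, and its p values are too small. With the 18 arrays, a random block for the animal and the set of hybridization control level as a covariate, a setting added after seeing the data, Vim (-0.72) and Tagln2 (-0.65) also passed in limma, each with an adjusted p of 0.0376.

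The 5 related genes, which the choice did not name as lower, had a median change of -0.39 in HFD+PE against chow. Anxa1 had the largest among them, -0.66 (95% interval -1.04 to -0.28; adjusted p = 0.168 in limma), with all 5 HFD+PE animals below the chow mean. S100a6 followed at -0.45 (-0.80 to -0.10; adjusted p = 0.296), Lgals1 at -0.39 (-0.72 to -0.06; adjusted p = 0.361) and Tagln at -0.33 (adjusted p = 0.447). Anxa5 was at -0.17 (-0.42 to 0.08; adjusted p = 0.687), with 4 of 5 animals below the chow mean. None of the 5 passed. The change of Anxa5 was -0.10 without HFD+PE 1 and that of Lgals1 -0.26 without the same animal.

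The contrast of HFD with chow was the one on which Tagln2, Vim, Anxa2 and Crip1 were picked, and its values are therefore given as a description. Tagln2 was at -0.65 (SE 0.12), Crip1 at -0.65 (SE 0.13), Vim at -0.60 (SE 0.13) and Anxa2 at -0.45 (SE 0.09). Of the related genes, Anxa1 was at -0.71 (SE 0.18), S100a6 at -0.60 (SE 0.16), Lgals1 at -0.38 (SE 0.16) and Tagln at -0.36 (SE 0.16), while Anxa5 was at 0.00 (SE 0.12). The groups did not overlap for 2 of the 9, Tagln2 and Crip1, against 0.211% of all genes lower without overlap. Over all genes, 46.6% had a lower mean on HFD and 3.57% were lower at an unadjusted p under 0.05, with 0 genes past the adjusted threshold. With the hybridization control level as a covariate, Anxa5 was at -0.22 and Lgals1 at -0.63, and with both Anxa2 probe sets averaged Anxa2 was at -0.27. This contrast and that of HFD+PE with chow share the chow animals.

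**Figure D2:**
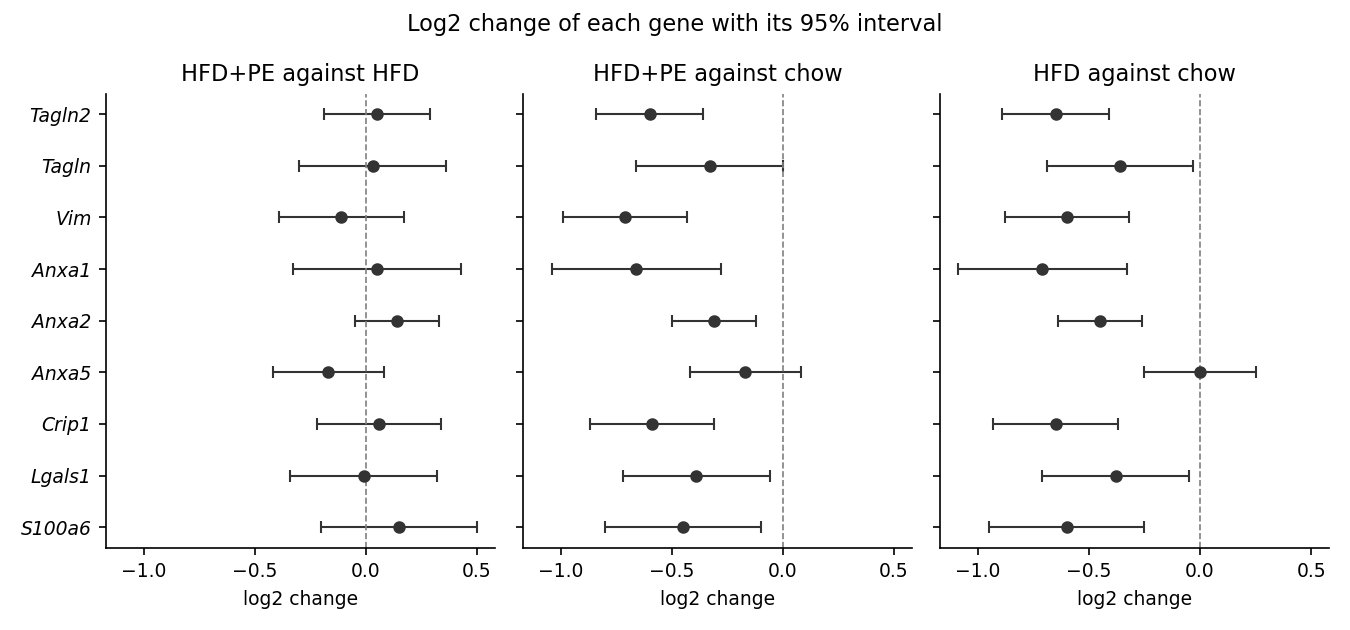
Log2 change (x axis) of each of the 9 genes (y axis) with its 95% interval from limma, for HFD+PE against HFD, HFD+PE against chow and HFD against chow. All intervals of HFD+PE against HFD span 0, and Anxa5 alone spans 0 in both comparisons with chow, that of Tagln reaching 0.00 in HFD+PE against chow. Tagln2, Vim, Anxa2 and Crip1 were picked as lower in HFD against chow, so their intervals there restate that choice. HFD+PE against chow shares the same chow animals.

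HFD+PE was set against HFD to ask about the extract itself, given on the same diet. Of the 9 genes 3 had a lower mean, where 46.6% of all genes had one, and 6 a higher mean, with a median change of 0.05 (0.00 over all genes). None passed in limma, and none was lower (1.06% of all genes) or higher (1.64%; 2.7% in either direction) at an unadjusted p under 0.05. In none did the groups separate without overlap, lower (0.0563% of all genes) or higher (0.0774%). The largest differences were -0.17 for Anxa5 (95% interval -0.42 to 0.08), 0.15 for S100a6 (-0.20 to 0.50) and 0.14 for Anxa2 (-0.05 to 0.33). The first pair moved with single animals, as S100a6 was at 0.06 without HFD 4 and at 0.28 without HFD 5 and Anxa5 at -0.10 without HFD+PE 1. With the hybridization control level as a covariate Anxa5 was at -0.03. For Tagln2 the difference was 0.05 (-0.19 to 0.29), for Crip1 0.06 (-0.22 to 0.34), and for Vim -0.11 (-0.39 to 0.17). Anxa1 was at 0.05 (-0.33 to 0.43), Tagln at 0.03 (-0.30 to 0.36) and Lgals1 at -0.01 (-0.34 to 0.32). These intervals do not show that the groups were alike, since they reach up to 0.50 log2 units on the higher side and -0.42 on the lower. The HFD animals are those in which Tagln2, Vim, Anxa2 and Crip1 had been picked as low.

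Within groups, most pairs of the 9 genes were positively correlated from animal to animal. Over the deviations of the 15 animals from their group means, 28 of the 36 pairs of genes had a Pearson correlation above 0, with a median of 0.37 and a range from -0.51 to 0.85. These correlations are descriptions over arrays that share their normalization and rounding. The same was not computed for pairs among all genes, so joint variation cannot be called particular to these genes. The highest were between Anxa1 and S100a6 (r = 0.85, Spearman's rho 0.83) and between Anxa2 and S100a6 (r = 0.84, rho 0.66). Tagln had the lowest, with -0.51 against Anxa1, -0.43 against S100a6 and -0.41 against Vim. HFD 5 was above its group mean for 8 of 9 genes and chow 5 for 7 of 9. HFD+PE 1, chow 1 and HFD 4 were each above theirs for only 1 of 9. HFD+PE 1 also had the highest hybridization control signal of all arrays (12.92) and, at 3.70, the largest 3′ minus 5′ difference of the Gapdh and beta-actin control probe sets, a measure of RNA integrity. Without HFD+PE 1 the median change of the 9 genes in HFD+PE against chow was -0.42.

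**Figure D3:**
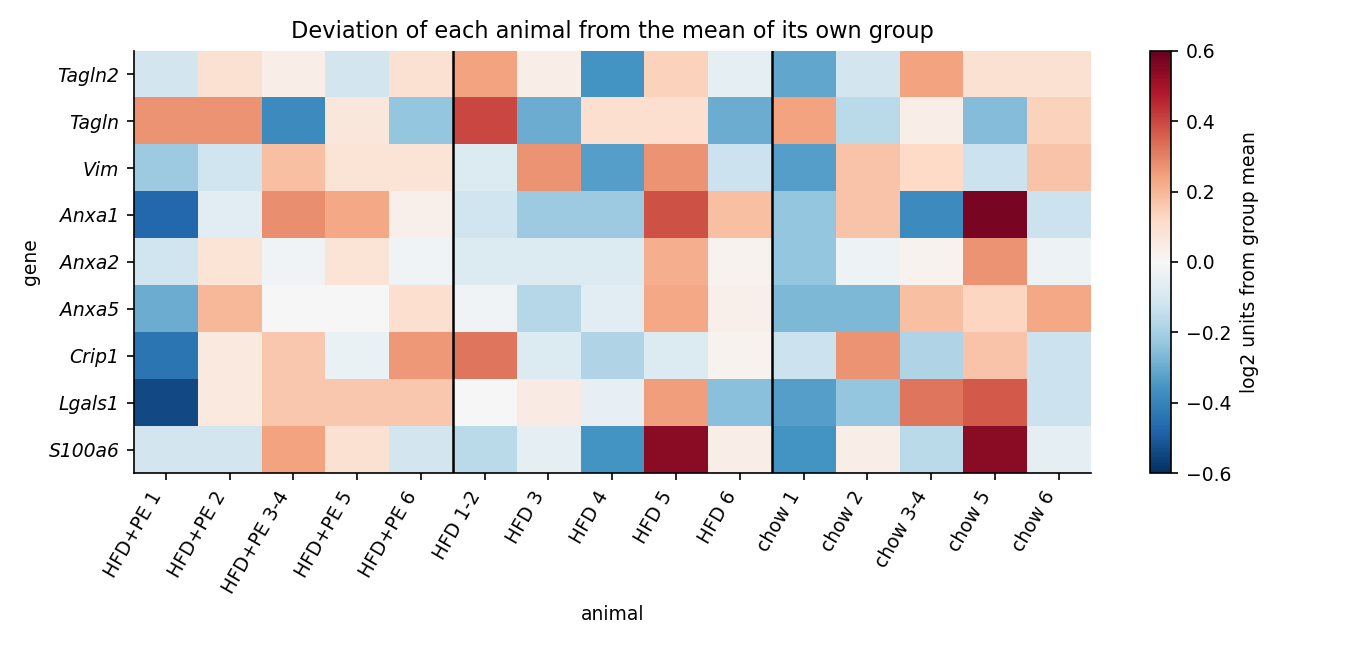
Deviation of each animal (x axis) from the mean of its own group, in log2 units (colour), for each of the 9 genes (y axis); black lines separate HFD+PE, HFD and chow. Columns mostly of 1 colour, such as HFD 5 (8 of 9 genes above the mean) and HFD+PE 1 (1 of 9 above), show animals in which most genes moved together.

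Hybridization control level and RNA integrity were set beside the members as measured quantities. The median change of the 9 genes in HFD+PE against chow was -0.46 on the arrays with low control signal only, -0.55 on those with high signal only, -0.49 with the control level as a covariate and -0.46 with the 3′ minus 5′ difference as a covariate. On high-signal arrays alone, where HFD+PE 1 and 3 stand against chow 1, 2 and 3, Vim was at -0.70, Tagln2 at -0.55, Tagln at -0.57 and S100a6 at -0.20.

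Genes of the same families and of the wider cytoskeleton were then examined, 101 of 118 listed being measured. Of the 101, 41 had a mean level below that of the median gene, as had 3 of the 9 genes. A change may be harder to see in such dim genes. In HFD+PE against chow, 70 were lower (45.6% of all genes were) and 28 higher, with a median of -0.08, and 0 passed in limma in either direction (smallest adjusted p = 0.111). At an unadjusted p under 0.05, 19 of the 101 were lower, where 5.14% of all genes were, and 3 higher. Without overlap between the groups, 5 were lower (0.732% of all genes) and 0 higher. In HFD against chow 71 were lower and 29 higher, with a median of -0.10. In HFD+PE against HFD 49 were lower and 48 higher, with a median of 0.00. Beside these, the 5 related genes had a median of -0.39 in HFD+PE against chow and -0.38 in HFD against chow, and the 4 picked as lower on HFD had -0.60 and -0.62 in the same comparisons, the second of which restates that choice.

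The partner genes of the 9 differed from one another. S100a10, which binds Anxa2, was at 7.19 ± 0.20 in HFD+PE (range 6.9 to 7.4), 7.25 ± 0.27 in HFD and 7.65 ± 0.10 in chow (range 7.5 to 7.75), a change of -0.46 in HFD+PE against chow (SE 0.12; adjusted p = 0.16 in limma). HFD+PE and chow animals did not overlap for this gene. The median over 13 S100 genes, S100a10 among them and S100a6 not, was -0.02, with S100a11 at -0.26 and S100a13 at 0.16. Of these 13, 9 had a mean level below that of the median gene. Among the other 7 annexins the median was -0.05: Anxa3 was at -0.73 (SE 0.25; adjusted p = 0.275), Anxa6 at -0.08 and Anxa8 at 0.45 (SE 0.27). Of these annexins 3, Anxa8 among them, had a mean level below that of the median gene. Among 7 galectins, 4 of them likewise below it, the median was -0.06. Lgals9 averaged 6.70 ± 0.24 in HFD+PE, 6.98 ± 0.31 in HFD and 7.46 ± 0.36 in chow (-0.76, SE 0.17; adjusted p = 0.111), and Lgals3, a galectin of macrophages, was at -0.75 (SE 0.21), whereas Lgals8 was at 0.26.

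Of the calponins, relatives of the transgelins, Cnn2 was at -0.32 in HFD+PE against chow (SE 0.09; adjusted p = 0.214), Cnn1 of smooth muscle at 0.16 and Tagln3 at -0.03. The thymosin Tmsb4x, a main actin-sequestering protein, was at -0.17 and Tmsb15b2 at 0.03. Among LIM proteins related to Crip1, Csrp1 was at -0.45 (SE 0.14), Csrp2 at -0.38 (SE 0.17) and Crip2 at 0.16. For intermediate filaments other than Vim the median was -0.11 over 12 genes. Krt19, a keratin of bile duct cells, was at -0.69 (SE 0.23; adjusted p = 0.247), the hepatocyte keratin Krt18 at -0.40 (SE 0.13) and the lamin gene Lmnb2 at -0.24. Actins, myosins and tropomyosins had a median of -0.09 over 13 genes, with Tpm4 at -0.43, Myh10 at -0.22 and Actg2 at 0.21. Actin-binding and turnover genes had a median of -0.12 over 32 genes, 25 of them lower. Flna, which crosslinks actin, was at -0.31 (SE 0.08; adjusted p = 0.134), the focal adhesion gene Vcl at -0.28 and Cotl1 at -0.53. Tubulins had a median of -0.13 over 7 genes, with Tubb5 at -0.28, Tubb3 at -0.22 and Tubb2b at -0.17. Cnn1, Tagln3, Tmsb15b2, Csrp2, Krt19, Lmnb2, Myh10, Actg2, Tubb3 and Tubb2b had mean levels below that of the median gene.

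Markers of some other liver cell types were also mostly lower in HFD+PE than in chow, where 45.6% of all genes were. None of these markers passed in limma. In bulk liver, fewer cells of a type and less RNA per cell cannot be told apart. Of 12 macrophage and Kupffer cell markers measured, 10 were lower in HFD+PE than in chow, with a median of -0.77; their mean level ranged from 7.09 to 7.94 in HFD+PE, from 7.34 to 8.08 in HFD and from 7.88 to 8.61 in chow. The Kupffer cell lectin gene Clec4f was at -0.97 and the complement gene C1qc at -0.91, while Lyz2 and Cd14 were each at 0.15. Of 14 stellate cell, fibroblast and smooth muscle markers, 10 were lower, with a median of -0.32 and ranges of 6.16 to 6.46 in HFD+PE, 6.19 to 6.59 in HFD and 6.31 to 6.67 in chow. The stellate markers Acta2 and Des were at -0.08 and -0.11, whereas Col1a2 was at -0.64 and Ccn2 at -0.85. The other 4 of the list were higher, Reln at 0.23, Cnn1 at 0.16, and Pdgfrb and Myh11 at 0.11 each. All 4 mesothelial markers measured were lower, with a median of -0.29 and ranges of 5.03 to 5.30 in HFD+PE, 4.88 to 5.31 in HFD and 5.25 to 6.00 in chow. Of these, 3 (Msln, Krt19 and Wt1) had a mean level below that of the median gene, and Krt19 was also listed for cholangiocytes. The same held for 9 of the 14 stellate list markers and 2 of the 12 macrophage markers. Acta2, Des, Cnn1, Pdgfrb and Myh11 were among the 9, and Reln was not. The part of these markers in the levels of the 9 genes was not tested.

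The other marker lists lay nearer 0 in HFD+PE against chow, except the erythrocyte list, whose 3 markers were all lower. Its median was close to that of the mesothelial list (-0.29). Medians were -0.11 for 9 endothelial markers, -0.05 for 11 lymphocyte markers, -0.06 for 7 neutrophil and monocyte markers, -0.03 for 5 cholangiocyte markers, -0.26 for 3 erythrocyte markers and -0.02 for 7 hepatocyte markers. All 11 lymphocyte and all 7 neutrophil and monocyte markers had a mean level below that of the median gene. So had 4 of the 5 cholangiocyte, 4 of the 9 endothelial and 2 of the 3 erythrocyte markers. Arrays give no zero, so a marker near the bottom of the scale cannot be called absent. A change may also be harder to see near the top, as for Alb, where the highest deposited signal was 15.

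**Figure D4:**
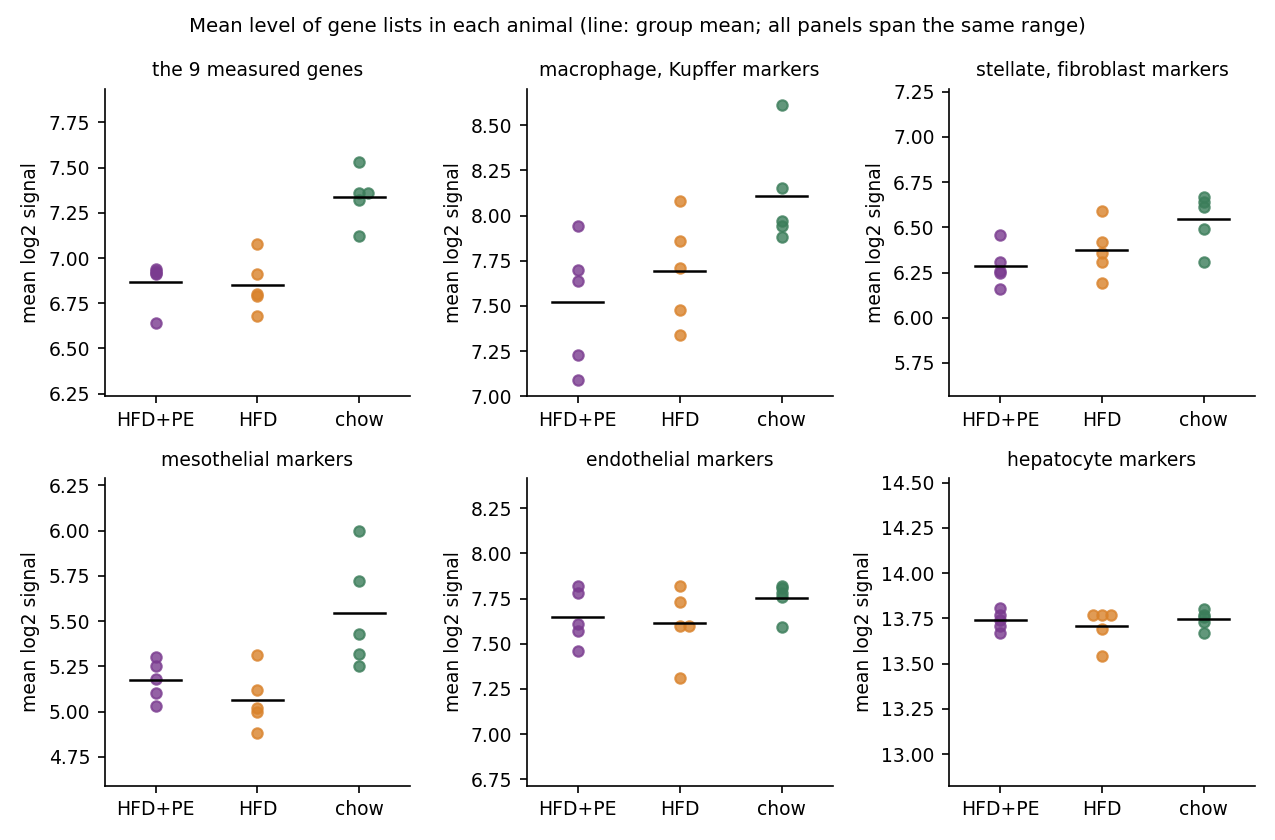
Mean log2 signal (y axes) of the 9 genes and of 5 marker lists in each animal of the 3 groups (x axes); points are animals, lines are group means, and every panel spans the same range. The mean of the 9 genes, 4 of them picked as lower on HFD, reaches 6.94 in HFD+PE and 7.08 in HFD and starts at 7.12 in chow. That of the 5 related genes alone (not drawn) overlaps between HFD (up to 6.56) and chow (from 6.48). Macrophage and mesothelial lists are lower with overlap, and hepatocyte markers, near the top of the scale, are level.

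The genes whose levels ran closest to those picked for their lower levels were sought among 7104 genes at or above the median level, by Pearson correlation over the 15 animals. They were selected as the highest, and all share the difference between the diets, so no p is given. Closest to Vim were Loxl2, a collagen-crosslinking oxidase (r = 0.94; 0.87 for deviations from group means; 0.90 without the 2 animals farthest from the median), the ADP-ribosyltransferase gene Parp16 (0.87) and the lipid phosphatase gene Mtmr4 (0.87). For deviations from group means, r with Vim was lower, at 0.62 for Parp16 and 0.66 for Mtmr4. Loxl2 averaged 6.63 ± 0.15 in HFD+PE, 6.71 ± 0.31 in HFD and 7.14 ± 0.21 in chow. Closest to Tagln2 were Igfbp3, a carrier of insulin-like growth factors (0.89; 0.77 for deviations), Ramp1, a receptor accessory protein (0.87), and Parp16 (0.87). For deviations, r with Tagln2 was 0.80 for Ramp1 and 0.53 for Parp16. Anxa2 had lower best matches, with Cst3, which encodes cystatin C (0.80), the growth factor receptor gene Pdgfra of stellate cells (0.80) and Ramp1 (0.79). For deviations, r with Anxa2 was 0.86 for Cst3, 0.61 for Pdgfra and 0.57 for Ramp1. Crip1 had the closest of all, with Lrg1, a secreted leucine-rich glycoprotein (0.95; 0.89 for deviations), Glcci1, a glucocorticoid-induced transcript (0.95; 0.92 for deviations), and Dpysl2 (0.90). Dpysl2 was at 0.82 with Crip1 for deviations. Without the 2 animals farthest from the median, r ran from 0.69 (Cst3 with Anxa2) to 0.92 (Glcci1 with Crip1). It fell to 0.79 for Ramp1 with Tagln2 and for Dpysl2 with Crip1. For Mtmr4 with Vim it rose to 0.89, and with Anxa2 it rose to 0.82 for Pdgfra and 0.81 for Ramp1. Glcci1 averaged 7.30 ± 0.38 in HFD+PE, 7.16 ± 0.26 in HFD and 7.76 ± 0.18 in chow.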

How the data were processed

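Total RNA from rat livers was hybridized to 18 Affymetrix arrays. Expression Console (Affymetrix) and RMA are named per the submitters' processing notes, with no versions in the sources used here; RMA corrects background, normalizes arrays by quantiles and summarizes probe sets. Signals of 31099 probe sets were deposited on a log2 scale, from 2.2 to 15, in steps of 0.1. Precision rests on how many animals there are and on that step, since arrays have no read depth. Tests did not include the 57 control probe sets, and 436 probe sets naming several genes and 9780 naming none were not used. The 20826 others were named from the platform annotation, 20758 of them matched to RefSeq by gene identifier, and gave 14217 genes.

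Arrays of 1 animal were averaged. Groups were compared over the 15 animals with limma 3.58.1 in R 4.3.3 (lmFit with 1 mean per group, eBayes, two-sided, Benjamini-Hochberg over all genes, threshold 0.05), with no filter on dim genes. The fit was tested on simulated data with changes larger than those measured in these genes, so that test does not cover changes of their size. Named were all the genes chosen, up to 3 genes per family list with the smallest p in HFD+PE against chow, the 3 genes most correlated with each of Vim, Tagln2, Anxa2 and Crip1, and markers of other cell types. Of the markers, Lyz2, Cd14, Acta2, Des and Alb are named to show members of their lists near the chow level. They were chosen after their values were seen. Clec4f, C1qc, Col1a2 and Ccn2 were among the lowest of their lists in HFD+PE against chow. Reln, Cnn1, Pdgfrb and Myh11 are named as the stellate list markers that were higher. The genes and lists were chosen with earlier results of these data known, and so was the averaging of array pairs. Alternatives were 18 separate arrays, each animal left out, covariates, other probe set and gene filters, centring and other variance models; 3 on the hybridization controls were added after seeing the data. Replicate numbers were not taken to pair samples. In their deviations, 4 of 18 same-numbered pairs of arrays correlated above 0.1, as did 18 of 90 differently numbered pairs. These counts cannot exclude a pairing.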

Additional observations from a re-analysis of the deposited data

Results flagged for a closer look

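Of 27 combinations of a gene and a group, 1 held an animal far from the others of its group, where chance gives about 1 in 20. It was HFD+PE 1 for Lgals1, at 4.4, with the other HFD+PE animals at 5.0 to 5.1; the gap was 0.86 of the group's range. In the same animal Anxa1 (5.6), Crip1 (6.9) and Anxa5 (7.6) were also the lowest of the HFD+PE group, and its array had the highest hybridization control signal (12.92). Without it, Lgals1 in HFD+PE was -0.26 from chow in place of -0.39, and 0.12 from HFD in place of -0.01.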

How the results depend on the processing

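The precision is limited by 5 animals per group and by rounding to 0.1. In HFD+PE against chow, all 204 values of the 9 genes over 23 alternatives stayed below 0, and the median change of the 9 ran from -0.55 to -0.40. Of these values 195 also stayed on their side of the threshold; the exceptions passed. In HFD against chow 190 of 195 values moved by less than 1 SD, and in HFD+PE against HFD 175 of 195 kept their sign. The cause of the shifts below was not tested unless given.

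The settings with 18 separate arrays, with or without the replicate block, count arrays of an inferred pair as independent animals. With 18 separate arrays, 145 genes passed in HFD+PE against chow and 725 had an unadjusted p under 0.05 in HFD+PE against HFD, where Tagln was at -0.10 and Lgals1 at 0.02. With the replicate number as a block on 18 arrays, 119 genes passed in HFD+PE against chow, among them Vim, Tagln2 and Anxa2. In HFD+PE against HFD 711 had an unadjusted p under 0.05 (Tagln -0.10, Lgals1 0.02). Replicate numbers are not known to pair the samples. With a random block for the animal and the control set as a covariate (added, like the low-signal and high-signal settings, after seeing the data), 18 genes passed in HFD+PE against chow, among them Vim and Tagln2 (adjusted p = 0.0376 each in limma), and 1 in HFD against chow, and Lgals1 was at 0.07 in HFD+PE against HFD. On low-signal arrays only, 3 and 1 passed, 610 had an unadjusted p under 0.05 in HFD+PE against HFD, and Lgals1 was at 0.15. On high-signal arrays only, 711 had one in HFD+PE against chow, and the median of other family genes was -0.12. With the control level as a covariate, 720 had one in HFD against chow, and in HFD+PE against HFD Lgals1 was at 0.16 and Tagln at -0.03. Lgals1 there was 0.01 with the 3′ minus 5′ difference as a covariate; without the 3 arrays whose labels carry 1, not 3, as a second number, of unstated meaning, it was 0.03 and Tagln -0.02. Leaving out genes below the median level, fewer genes being tested, gave 1042 genes at an unadjusted p under 0.05 in HFD+PE against chow, 653 in HFD against chow and 198 in HFD+PE against HFD, and 5 of 6 genes lower in HFD against chow. Centring arrays on their medians moved the median of other family genes in HFD against chow to -0.06. The mean of both Anxa2 probe sets gave -0.18 in HFD+PE against chow.

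Animals of the groups compared were left out 1 at a time. This gave 0 to 26 genes that passed in HFD+PE against chow (26 with HFD+PE 3-4 left out, 2 with HFD+PE 1, and 1 each with chow 5 and HFD+PE 2). In HFD+PE against HFD 0 to 2 passed (2 without HFD+PE 3-4), and in HFD against chow 0 to 1 (1 without HFD 1-2). Genes with an unadjusted p under 0.05 numbered 316 to 600 in HFD+PE against HFD, the highest without HFD+PE 2, 1209 to 1723 in HFD+PE against chow and 847 to 1419 in HFD against chow. Of the 9 genes, 2 to 5 were lower in HFD+PE against HFD, with 5 lower without HFD 4. In that comparison Tagln2 ran from -0.04 to 0.11, Tagln from -0.04 to 0.13, Anxa1 from -0.02 to 0.17 and Lgals1 from -0.07 to 0.12.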
